A study of Mus musculus with 12 samples.

Results

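The genes described here are 9 genes that osteoclasts, the multinucleated cells that dissolve bone, use to fuse and to resorb: Dcstamp, Ocstamp, Calcr, Acp5, Ctsk, Mmp9, Oscar, Nfatc1 and Itgb3. They were picked by name, each as the row of the deposited gene count table that carries its symbol, and they are 9 of 23358 genes in that table. All 9 passed the filter on low counts, which left 16190 genes for testing. The samples were bulk RNA from the frontal bone of mice at postnatal day 3, dissected so as to include nasal bone plus both the frontonasal and the coronal suture, and digested with collagenase and trypsin before RNA was extracted. Mice carrying the heterozygous FGFR2C342Y/+ allele, a model of Crouzon craniosynostosis in which a cysteine of the fibroblast growth factor receptor FGFR2 is replaced, were compared with wild-type mice on the C57BL/6 and the BALB/c backgrounds. There were 3 samples in each of 4 groups: C57BL/6 wild type (replicates 1 to 3), C57BL/6 mutant (replicates 4 to 6), BALB/c wild type (replicates 13 to 15) and BALB/c mutant (replicates 16 to 18). All groups shared the age and the tissue. The labels did not say whether samples came from separate or pooled animals, so p-values measure only the spread between these samples.

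Osteoclasts arise from cells of the monocyte lineage. The cytokine RANKL, acting through its receptor RANK, together with co-stimulation through immunoreceptors such as OSCAR, switches on the transcription factor NFATc1, which drives the genes for cell fusion and for the resorption machinery. Fused cells attach to bone through the integrin whose beta subunit is encoded by Itgb3, acidify the sealed space beneath them and release proteases into it. In the growing skull, osteoclasts remodel the bone plates and suture edges that osteoblasts lay down.

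The depth was 27181658 to 46521546 counts per sample, and every deposited count was even. The labels carried 1 sequencing flow cell identifier for all C57BL/6 samples and a different one for all BALB/c samples, so strain and flow cell cannot be told apart, whereas the comparisons of genotype lay within a flow cell. The first principal component of log2 CPM (counts scaled to the library's effective size) took 62.9% of the variance and placed C57BL/6 mutant replicate 4, at 69.2, near the C57BL/6 wild-type samples, at 89.6 to 116.7, and away from mutant replicates 5 and 6, at -22.5 and -16.3. Y-linked counts were high in all 3 C57BL/6 wild-type samples and in 1 of 3 samples of every other group, so genotype in C57BL/6 moved with Y-linked level. Fgfr2 itself, counted over both alleles together, stood at 249 CPM ± 35.8 (SD, n = 3) in C57BL/6 wild type, 361 CPM ± 20.6 in C57BL/6 mutants, 282 CPM ± 11.4 in BALB/c wild type and 299.9 CPM ± 25.0 in BALB/c mutants.

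Levels per length of transcript, as the authors' RPKM (reads scaled to gene length and library size), differed widely among the 9 genes. In C57BL/6 wild type the secreted enzymes led: Ctsk, the collagen-degrading cathepsin K, reached 768 RPKM ± 58.0 (SD, n = 3). Acp5, the tartrate-resistant acid phosphatase used to stain osteoclasts, reached 479 RPKM ± 42.1, and Mmp9, a matrix metalloprotease, 395 RPKM ± 21.9. The ranges of Ctsk, Acp5 and Mmp9 did not overlap in that group. Itgb3 followed at 24.1 RPKM ± 1.29 and Nfatc1 at 16.7 RPKM ± 1.23. Oscar at 9.42 RPKM ± 0.562, Ocstamp at 8.99 RPKM ± 0.995 and Dcstamp at 7.73 RPKM ± 0.320 were neighbours, and the range of Ocstamp overlapped both others. Calcr, the calcitonin receptor that lets calcitonin halt resorption, was lowest at 0.324 RPKM ± 0.0686. The order Ctsk, Acp5, Mmp9, Itgb3, Nfatc1 held for the means of every group, with Calcr last in each. The authors' table placed all 9 genes on mm10, of which 8 positions are given here: chr15:39745932-39760934 (Dcstamp), chr2:165395450-165400394 (Ocstamp), chr6:3685720-3764713 (Calcr), chr9:22126727-22135746 (Acp5), chr3:95499286-95509362 (Ctsk), chr2:164948251-164955846 (Mmp9), chr7:3609815-3616133 (Oscar) and chr11:104608000-104670471 (Itgb3). Each span is that of the gene row, exons and introns together. In BALB/c, Dcstamp (11.1 to 12.4 RPKM over the 6 samples) lay above Ocstamp (6.53 to 8.80 RPKM) and Oscar (5.50 to 7.90 RPKM), without the overlap seen in C57BL/6 mutants.

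In C57BL/6, all 9 genes were higher in mutants than in wild type (edgeR quasi-likelihood test, Benjamini-Hochberg adjusted p under 0.05), against 23.9% of all tested genes called in either direction and 11.3% called higher. The 3 mutant samples lay above all 3 wild-type samples for each of the 9 genes, where 19.7% of tested genes showed such a separation upward. The members' median difference was 0.96 on the log2 scale, beside -0.00395 over all tested genes. Together the 9 genes took 0.444% ± 0.0167 (SD, n = 3) of all counts in wild type and 0.750% ± 0.0333 in mutants. In bulk tissue, more osteoclasts and more RNA per osteoclast cannot be told apart.

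**Figure D1:**
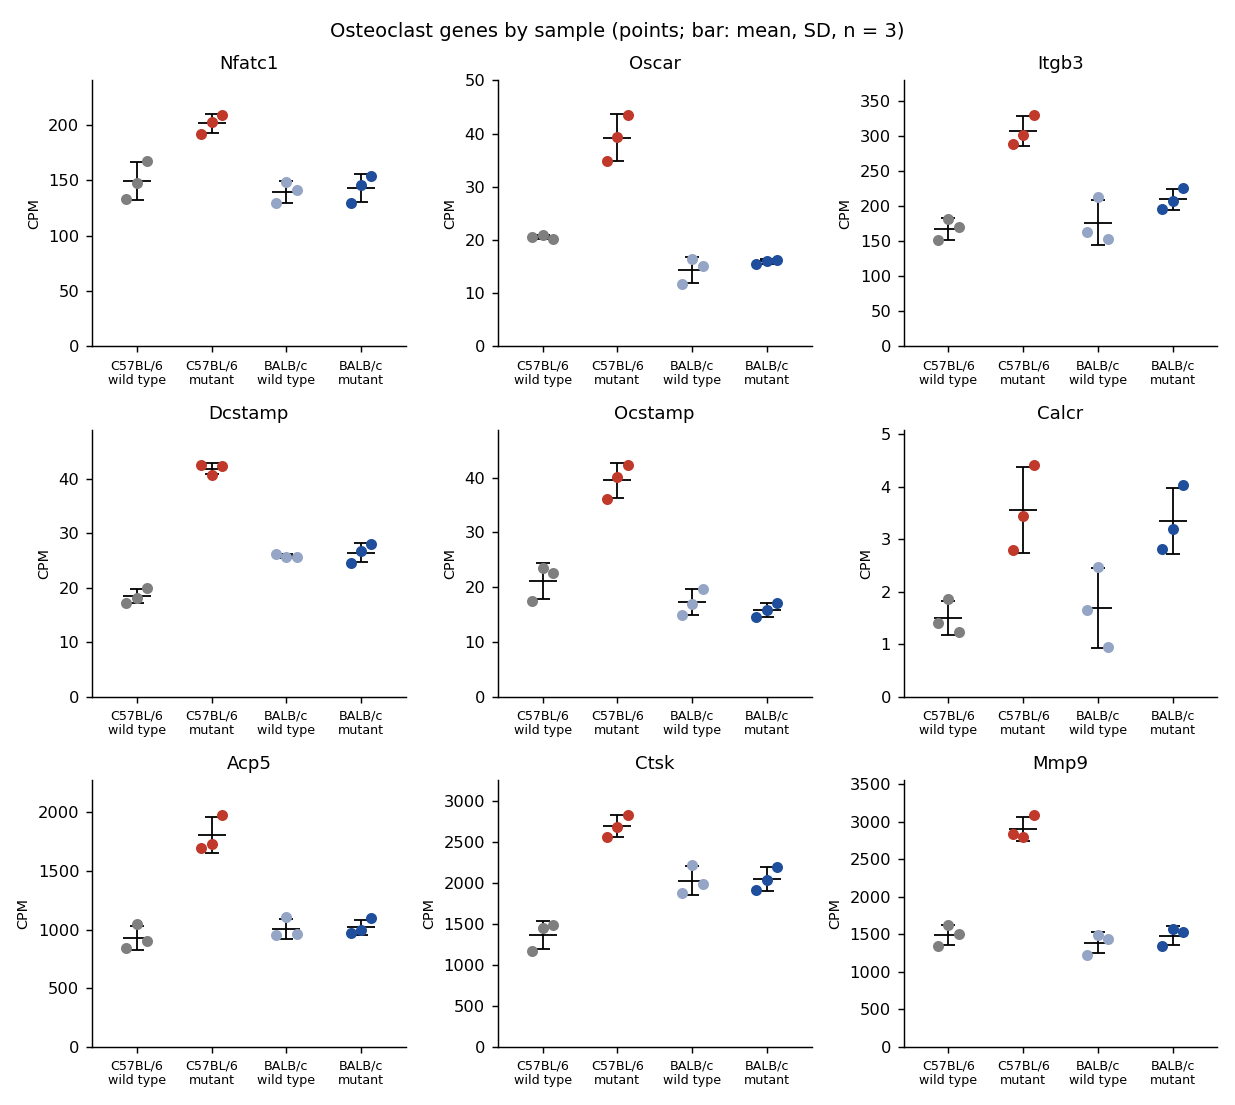
CPM of each of the 9 genes (linear axes from 0) in every sample, with the 4 groups side by side; points are single samples and bars are the mean and SD (n = 3). For each gene the 3 C57BL/6 mutant samples sit above the 3 C57BL/6 wild-type samples, whereas in BALB/c the mutant and wild-type points overlap for 8 genes and separate for Calcr.

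Of the fusion genes, Dcstamp, which encodes the multi-pass membrane protein DC-STAMP needed for osteoclast precursors to fuse, read 17.3, 18.2 and 20.0 CPM in C57BL/6 wild-type replicates 1 to 3, and 42.7, 40.7 and 42.4 CPM in mutant replicates 4 to 6. Every mutant value was above every wild-type value, and the mutants varied little. The fitted difference was 1.18 ± 0.0665 (log2, SE; adjusted p = 1.07e-05), a 2.27-fold higher level. Ocstamp, which encodes the related fusion protein OC-STAMP, read 17.4, 23.5 and 22.6 CPM in wild type and 36.01, 40.1 and 42.4 CPM in mutants. Replicate 1 was low among the wild-type samples, and the groups remained apart. The Ocstamp difference was 0.90 ± 0.123 (log2, SE; adjusted p = 0.000858).

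Among the regulators and receptors, Nfatc1 changed least. It read 133, 147 and 167 CPM in wild type and 192, 202 and 209 CPM in mutants, so that the highest wild-type sample and the lowest mutant sample were close without overlapping. The difference was 0.43 ± 0.0908 (log2, SE; adjusted p = 0.00736), or 1.35-fold, and 0.24 (adjusted p = 0.0302) with libraries scaled by total counts. Oscar, whose product is a collagen-binding receptor that co-stimulates NFATc1, read 20.6, 20.9 and 20.2 CPM in wild type and 34.8, 39.4 and 43.6 CPM in mutants. The wild-type values were tight and the mutant values spread more. Oscar was 1.91-fold higher (0.93 ± 0.108, log2, SE; adjusted p = 0.000354). Calcr read 1.40, 1.87 and 1.23 CPM in wild type and 2.80, 3.44 and 4.42 CPM in mutants. It had the lowest counts and the largest error, and its 2.37-fold difference (1.24 ± 0.327, log2, SE; adjusted p = 0.0191) had a 95% interval from 1.44-fold to 3.88-fold. With Y-linked level as a covariate the Calcr difference was 1.10 (adjusted p = 0.0535), and it also missed the threshold without C57BL/6 wild-type replicate 1 (adjusted p = 0.0590), wild-type replicate 3 (0.0560) or mutant replicate 6 (0.0782); the other 8 genes kept their calls in each of these 4 fits.

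The attachment and resorption genes rose by similar amounts. Itgb3, the integrin beta-3 subunit that also serves platelets, read 151, 181 and 169 CPM in C57BL/6 wild type and 288, 301 and 330.1 CPM in mutants. The groups were well apart, and the difference was 0.87 ± 0.118 (log2, SE; adjusted p = 0.000791). Acp5 read 845, 1046 and 901 CPM in wild type and 1701, 1735 and 1980.1 CPM in mutants. No Acp5 value was shared between the groups, and the fold was 1.94 (0.96 ± 0.0999, log2, SE; adjusted p = 0.000219). Ctsk read 1174, 1448 and 1485 CPM in wild type and 2564, 2681 and 2835 CPM in mutants. Wild-type replicate 1 was the low one, and the fold was 1.97 (0.98 ± 0.101, log2, SE; adjusted p = 0.00021). Mmp9, which neutrophils also make, read 1347, 1618 and 1504 CPM in wild type and 2836, 2794 and 3090.4 CPM in mutants. It was 1.95-fold higher in mutants (0.96 ± 0.0991, log2, SE; adjusted p = 0.000207). C57BL/6 mutant replicate 4, which stood near wild type over all genes, was above every wild-type sample for all 9 genes, and without it all 9 remained higher.

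RefSeq promoter windows (build GRCm38.p6) were at hand for 4 of the 9 genes: Acp5, Oscar, Calcr and Ctsk. The windows of 3 of these genes are shown only because each holds a core motif of the NFAT family, to which NFATc1 belongs. Each is the 250 bases before a transcript start on the minus strand, 5′ to 3′, with motif matches in capitals: Acp5 chr9:22130599-22130848, Oscar chr7:3616158-3616407 and Calcr chr6:3764714-3764963.
Acp5: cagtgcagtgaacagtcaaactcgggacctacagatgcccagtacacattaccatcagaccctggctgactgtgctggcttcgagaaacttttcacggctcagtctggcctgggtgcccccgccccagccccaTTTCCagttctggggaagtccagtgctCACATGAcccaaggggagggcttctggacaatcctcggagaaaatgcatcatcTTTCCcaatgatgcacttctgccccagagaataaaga
Oscar: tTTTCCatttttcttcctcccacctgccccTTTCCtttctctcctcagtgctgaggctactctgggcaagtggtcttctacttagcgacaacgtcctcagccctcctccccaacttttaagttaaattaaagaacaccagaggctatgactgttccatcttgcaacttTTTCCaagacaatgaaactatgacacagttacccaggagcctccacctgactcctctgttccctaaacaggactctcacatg
Calcr: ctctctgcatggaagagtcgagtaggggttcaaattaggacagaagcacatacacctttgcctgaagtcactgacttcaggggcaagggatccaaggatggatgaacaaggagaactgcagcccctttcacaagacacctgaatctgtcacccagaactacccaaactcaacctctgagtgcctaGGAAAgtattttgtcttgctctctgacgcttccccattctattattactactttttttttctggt
The search covered both strands, so that a match on the opposite strand is printed as its reverse complement. It used GGAAA for the NFAT core, TGANTCA for AP-1, TCATGTG for the M-box, which MITF-family factors bind, and GAGGAAGT for PU.1. The PU.1 motif holds the first bases of the NFAT core but not its last, so a match to one was not counted as the other. The Acp5 window held 2 NFAT cores and 1 M-box, the Oscar window 3 NFAT cores and the Calcr window 1 NFAT core. Another Calcr window and the Ctsk window held none of these letters, and 2 windows at other Acp5 starts held 1 NFAT core each. No AP-1 or PU.1 letters occurred in any of the 7 windows. Of 32851 RefSeq mouse promoter windows of the same length, 55.6% held an NFAT core, 6.75% the AP-1 motif, 3.25% the M-box and 2.44% the PU.1 motif. These matches describe letters in the windows only.

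In BALB/c, 0 of the 9 genes passed the same test between mutants and wild type, where 0.136% of all tested genes did (0.0926% higher, 0.0432% lower). Without adjustment 1 gene, Calcr, had a p under 0.05, and DESeq2 and limma-voom also called 0 of 9. The median difference over the members was 0.04 on the log2 scale, and the members took 0.474% ± 0.0446 (SD, n = 3) of counts in BALB/c wild type and 0.502% ± 0.0287 in mutants.

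Dcstamp in BALB/c read 26.3, 25.6 and 25.6 CPM in wild-type replicates 13 to 15 and 24.6, 26.9 and 28 CPM in mutant replicates 16 to 18. The groups overlapped, and the difference of 0.04 had a 95% interval from -0.11 to 0.18 (log2). Ocstamp read 14.9, 16.98 and 19.7 CPM in wild type and 14.5, 15.8 and 17.03 CPM in mutants, again with overlap (-0.13 log2, adjusted p = 0.768). Calcr was the exception among the 9: it read 1.65, 2.47 and 0.937 CPM in wild type and 2.82, 3.19 and 4.04 CPM in mutants. Every Calcr mutant value was above every wild-type value, a separation seen upward in 9.93% of tested genes. Its difference was 0.99 ± 0.326 (log2, SE; adjusted p = 0.262), close in size to the one in C57BL/6, but it did not pass the adjusted threshold.

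Oscar read 11.7, 16.4 and 15.05 CPM in BALB/c wild type and 15.5, 16.1 and 16.3 CPM in mutants. Nfatc1 read 129, 148 and 141 CPM in wild type and 129.6, 145 and 154 CPM in mutants. For both regulators the groups overlapped, with differences of 0.15 and 0.03 (log2). Itgb3 read 163, 213 and 153 CPM in wild type and 195, 207 and 226 CPM in mutants. Wild-type replicate 14 lay among the mutants, and the difference was 0.25 (log2; 95% interval -0.01 to 0.50; adjusted p = 0.447). Acp5 read 949.8, 1106 and 961 CPM in wild type and 969.9, 992 and 1095 CPM in mutants. Ctsk read 1879, 2223 and 1986 CPM in wild type and 1912, 2035 and 2198 CPM in mutants. The enzymes' groups overlapped throughout. Mmp9 read 1228, 1494 and 1435 CPM in wild type and 1336, 1574 and 1526 CPM in mutants, a difference of 0.09 (log2; 95% interval -0.12 to 0.31), beside 0.02 (-0.20 to 0.24) for Acp5 and 0.01 (-0.20 to 0.23) for Ctsk.

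The difference between the strains' genotype effects was tested directly as the interaction, which used all 12 samples and so shares every group with the other comparisons. In it, 7 of the 9 genes passed, all with a smaller effect in BALB/c, where 10% of tested genes passed in either direction 4.58% in that direction and 5.46% in the other. The difference in effect was largest for Dcstamp at -1.14 ± 0.0935 (log2, SE; adjusted p = 0.000109), followed by Ocstamp at -1.03 (adjusted p = 0.00684), Ctsk at -0.96 (0.00326) and Acp5 at -0.94 (0.00354). Mmp9 at -0.87 (0.00484), Oscar at -0.79 (0.0124) and Itgb3 at -0.63 (0.0377) completed the 7. The edgeR call for Itgb3 was lost in 9 of 12 fits that left out 1 sample (adjusted p 0.0519 to 0.0977; kept without wild-type replicate 2 or mutant replicate 4 of C57BL/6, or wild-type replicate 15 of BALB/c), with Y-linked level as a covariate (0.0714) and with total-count scaling (-0.40, 0.0951). Nfatc1 at -0.40 ± 0.128 (adjusted p = 0.0692) and Calcr at -0.25 ± 0.458 (adjusted p = 0.751) did not pass. Nfatc1 passed without C57BL/6 wild-type replicate 3 (0.0304) or C57BL/6 mutant replicate 4 (0.0471), and with DESeq2 (0.0251). With total-count scaling the Nfatc1 value was -0.17 (edgeR adjusted p = 0.262). The 95% interval for Calcr, -1.25 to 0.74 (log2), holds both no difference and one as large as that of Dcstamp.

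**Figure D2:**
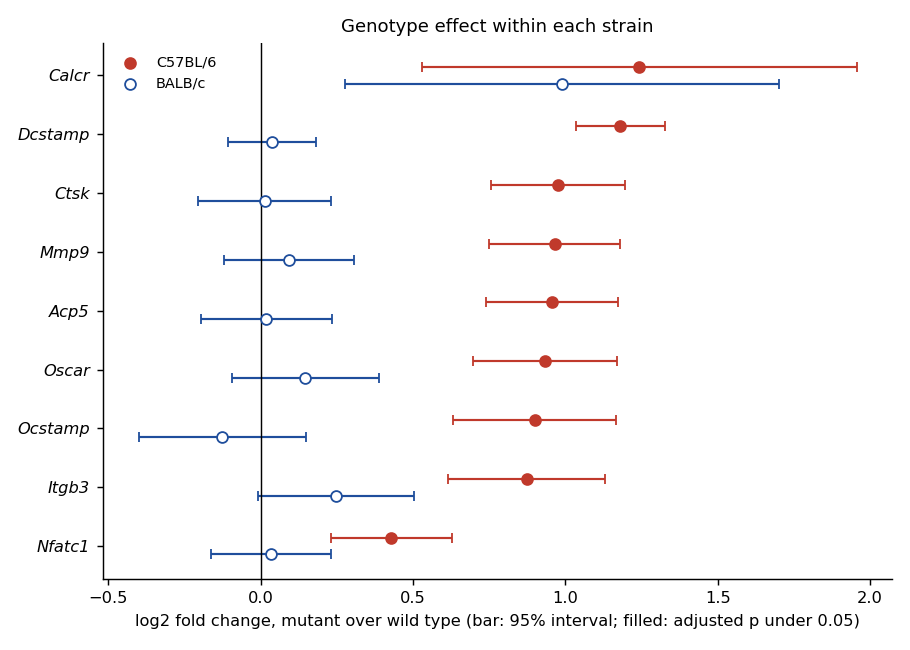
Genotype effect (mutant minus wild type, log2) for each of the 9 genes in C57BL/6 and in BALB/c, with 95% intervals; filled points passed the adjusted threshold and open points did not. The C57BL/6 estimates run from 0.43 for Nfatc1 to 1.24 for Calcr, and the BALB/c estimates lie between -0.13 and 0.25 apart from Calcr at 0.99.

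Averaged over the strains, all 9 genes were higher in mutants, against 7.99% of tested genes called (4.71% higher, 3.28% lower). Calcr had the largest averaged difference, 1.12 ± 0.231 (log2, SE; adjusted p = 0.0161), and Nfatc1 the smallest, 0.23 ± 0.0642 (adjusted p = 0.0477). The Nfatc1 call held in 4 of 12 fits that left out 1 sample, those without wild-type replicate 3 or mutant replicate 4 of C57BL/6, or wild-type replicate 14 or mutant replicate 16 of BALB/c, and its adjusted p was 0.0730 to 0.122 in the others. It was also lost with the Y-linked covariate (0.0975), with total-count scaling (0.15 log2, 0.0950) and with no filter on low counts (0.0533). The Ocstamp average, 0.39 (adjusted p = 0.0230), was lost without mutant replicate 6 of C57BL/6, or without wild-type replicate 13, mutant replicate 17 or mutant replicate 18 of BALB/c (0.0514 to 0.0674). For each of the 9 this average combines a called difference in C57BL/6 with a BALB/c difference that did not pass.

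Between the strains' wild-type samples, 3 of the 9 genes differed, where 48.5% of tested genes did (22.8% higher in BALB/c, 25.6% lower). Dcstamp was higher in BALB/c by 0.48 ± 0.0669 (log2, SE; adjusted p = 0.000178) and Ctsk by 0.57 ± 0.100 (adjusted p = 0.000864). For both, the 3 BALB/c samples lay above the 3 C57BL/6 samples, as for 27.3% of tested genes. Oscar fell by 0.51 on the log2 scale (adjusted p = 0.00288) and was the only one of the 9 with all BALB/c values below all C57BL/6 values, a separation found in 30.1% of tested genes. The Ocstamp difference was -0.30 (adjusted p = 0.0694), and it passed with libraries scaled by total counts (-0.40, 0.00909), with a stricter filter (0.0398), and without C57BL/6 wild-type replicate 1 (0.0136) or BALB/c wild-type replicate 15 (0.0339). Nfatc1 also passed with libraries scaled by total counts (-0.20, adjusted p = 0.0398). This comparison shares its C57BL/6 wild-type samples with the genotype effect in C57BL/6.

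Between the strains' mutants, 8 of the 9 genes were lower in BALB/c, where 36.9% of tested genes differed and 18.9% were lower. All 8 had every BALB/c mutant below every C57BL/6 mutant, as for 24.8% of tested genes, while 25.4% separated the opposite way. Ocstamp at -1.32 ± 0.124 (log2, SE; adjusted p = 1.38e-05) and Oscar at -1.30 ± 0.109 (6.16e-06) differed most. Mmp9 stood at -0.98, Acp5 at -0.82, Dcstamp at -0.66, Itgb3 at -0.55, Nfatc1 at -0.49 and Ctsk at -0.39 (log2). Calcr, at -0.08 ± 0.316 (adjusted p = 0.860), overlapped between the mutant groups. The C57BL/6 mutants of this comparison are the same samples as in the genotype effect in C57BL/6.

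**Figure D3:**
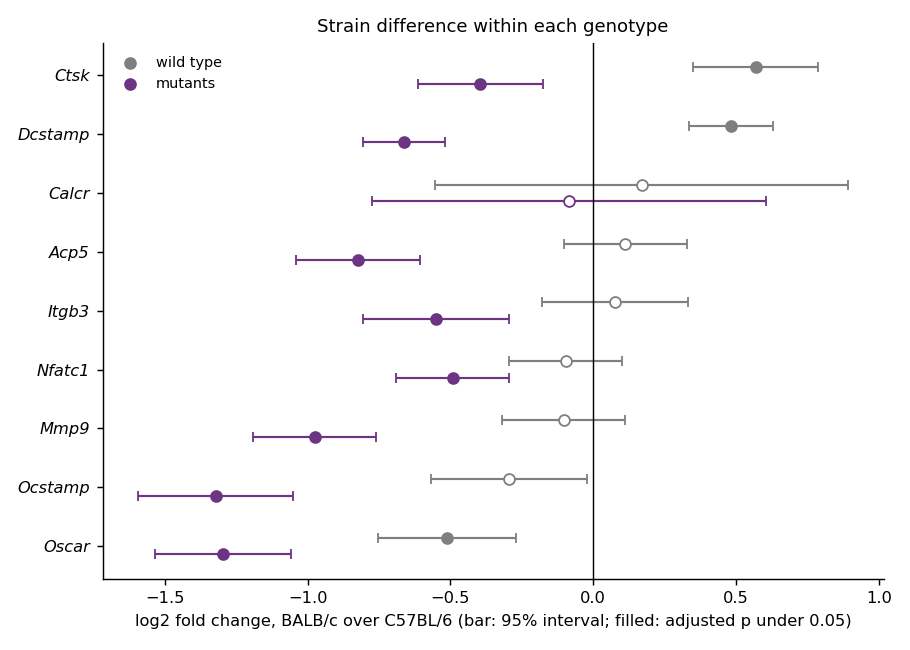
Strain difference (BALB/c minus C57BL/6, log2) for each of the 9 genes in wild type and in mutants, with 95% intervals; filled points passed the adjusted threshold. The wild-type estimates fall on both sides of 0, from -0.51 for Oscar to 0.57 for Ctsk, whereas all mutant estimates are below 0, from -1.32 for Ocstamp to -0.08 for Calcr.

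Proportions between members were taken on RPKM, and for the secreted enzymes they separated the strains. Mmp9 stood at 0.516 ± 0.0332 (SD, n = 3) of Ctsk in C57BL/6 wild type and 0.510 ± 0.0158 in C57BL/6 mutants, against 0.322 ± 0.0170 in BALB/c wild type and 0.341 ± 0.0209 in BALB/c mutants. The strains did not overlap in this ratio, and the genotypes within each strain did. Acp5 over Ctsk gave means of 0.626 and 0.614 in C57BL/6 and 0.455 and 0.456 in BALB/c, for wild type and mutants in turn. Ocstamp over Dcstamp, the balance of the fusion genes, was 1.16 ± 0.146 in C57BL/6 wild type, 0.960 ± 0.0867 in C57BL/6 mutants, 0.679 ± 0.102 in BALB/c wild type and 0.607 ± 0.0112 in BALB/c mutants. The C57BL/6 mutants lay below the C57BL/6 wild type in this ratio and above both BALB/c groups. Itgb3 over Nfatc1, the attachment gene over the regulator, instead separated the genotypes in C57BL/6, at 1.45 ± 0.141 in wild type and 1.96 ± 0.0633 in mutants, beside 1.62 ± 0.228 and 1.88 ± 0.0555 in BALB/c, where the ranges overlapped. No test was run on these ratios.

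Across the 12 samples, each gene's log2 CPM was standardised and set against the mean of all 9. Acp5 ran closest to that mean, with a root mean square difference of 0.173 standard deviations, followed by Itgb3 (0.228) and Mmp9 (0.238). Calcr was farthest (0.696), and Ctsk was next (0.540). Ctsk lay below the mean in every C57BL/6 sample and above it in every BALB/c sample. The genes outside the list whose standardised profile was most like the members' mean were Fam102a (0.148), Myo1d (0.155), Slc37a2 (0.189), Cdh2 (0.200), Clcn7 (0.209) and Ctnnb1 (0.214). This ranking took in tested genes with a mean of at least 1 CPM and left out predicted genes by name. Slc37a2, a sugar-phosphate transporter, averaged 134 CPM in C57BL/6 wild type, 261 CPM in C57BL/6 mutants, 148 CPM in BALB/c wild type and 167 CPM in BALB/c mutants. Clcn7 encodes the chloride transporter that partners the osteoclast proton pump, and averaged 77.9, 110.5, 77.9 and 80.2 CPM in the same order. Fam102a averaged 129, 208, 139 and 145 CPM, and Myo1d 138, 227, 142 and 152 CPM. Cdh2 averaged 205, 328, 194 and 225 CPM, and Ctnnb1 1005, 1367, 1079 and 1088 CPM. Whether osteoclasts make these transcripts was not tested. All of these genes were chosen for this likeness, which is a description over 12 samples that share 4 groups.

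The wider pathway was followed through lists of 48 further genes, of which 45 were in the table by name and all 45 were tested. In C57BL/6, 28 of the 45 were higher in mutants and 2 lower, with a median of 0.41 (log2), and in BALB/c 1 was higher. Over all tested genes, 11.3% were called higher and 12.6% lower in C57BL/6, and 0.0926% higher in BALB/c, and each list's count below is to be read against these shares. The interaction called 15 of the 45 with a lower effect in BALB/c, beside 4.58% of tested genes, and 1, Car2, with a higher one, beside 5.46%.

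Of the cytokine signals and their receptors, 5 of 6 rose in C57BL/6 mutants and none fell. Tnfrsf11a, which encodes the receptor RANK, went from 20.1 CPM ± 1.504 (SD, n = 3) to 34.6 CPM ± 1.69 (0.78 log2, adjusted p = 0.000258). Csf1r, the receptor for the monocyte growth factor M-CSF, went from 203 CPM ± 26.2 to 344 CPM ± 26.6 (0.76, adjusted p = 0.000742). Tnfsf11, which encodes RANKL and is made by osteoblast-lineage cells, went from 16.6 CPM ± 3.11 to 28.9 CPM ± 2.15 (0.80, adjusted p = 0.00371). In BALB/c the 3 genes differed by 0.15, 0.01 and 0.08 (log2), and none of these passed.

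Of the co-stimulation genes, 6 of 8 rose and none fell in C57BL/6. Tyrobp, the signalling adaptor DAP12, rose by 0.64 (log2, adjusted p = 0.000142), Syk, the kinase it recruits, by 0.40 (0.00395), and Siglec15, a sialic acid receptor that pairs with DAP12, by 0.91 (0.00611). For Syk the BALB/c estimate was as large, 0.41 (adjusted p = 0.0664), with an interaction of 0.01 (0.978). Of the transcription factors that drive osteoclasts, 4 of 9 rose: among them Jdp2 by 0.46 (adjusted p = 0.00168), Prdm1, which represses inhibitors of osteoclast formation, by 0.61 (0.0273), and the NF-kappaB subunit Relb by 0.43 (0.0358).

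Of 8 further fusion and adhesion genes, 4 rose and 1 fell in C57BL/6. Atp6v0d2, a proton pump subunit also needed for fusion, went from 78.4 CPM ± 7.95 (SD, n = 3) to 145.7 CPM ± 15.7 (0.89 log2, adjusted p = 0.000448). Itgav, the alpha subunit that pairs with the Itgb3 product, rose by 0.62 (0.00227), and Src, the kinase that organises the ruffled border, by 0.33 (0.00153). The gene that fell was Adam8, a membrane metalloprotease, by 0.45 (0.0389), named after its value was seen. Of 10 genes for acid secretion and resorption, 8 rose and 1 fell. Tcirg1, the osteoclast-rich proton pump subunit, went from 168 CPM ± 12.9 to 290.2 CPM ± 15.3 (0.79, adjusted p = 0.000139), and Atp6v1c1, another pump subunit, rose by 0.60 (9.82e-05).

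Car2 ran the other way from the members. It encodes carbonic anhydrase II, which supplies protons for resorption and is abundant in red blood cells, and it went from 76.2 CPM ± 9.87 (SD, n = 3) in C57BL/6 wild type to 43.1 CPM ± 1.31 in mutants (-0.82 log2, adjusted p = 0.000128). In BALB/c it rose from 96.5 CPM ± 3.83 to 136.0 CPM ± 1.10 (0.50, adjusted p = 0.0398), the only gene of the pathway lists called there. The Car2 interaction was 1.32 (adjusted p = 0.000109). Erythroid markers moved the same way: their summed level was 83.1 to 102.7 CPM in C57BL/6 wild type, 27.8 to 39.7 CPM in C57BL/6 mutants, 112 to 139.9 CPM in BALB/c wild type and 193 to 226 CPM in BALB/c mutants. The part of red cells in the Car2 result was not tested.

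**Figure D4:**
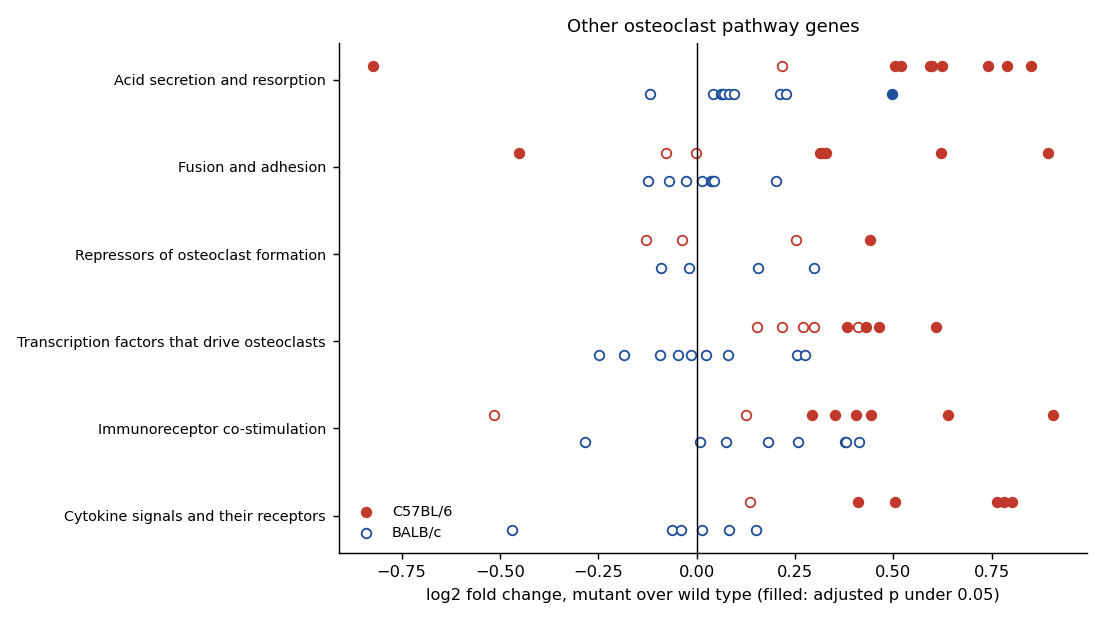
Genotype effect (mutant minus wild type, log2) for the 45 tested pathway genes, by list, in C57BL/6 and BALB/c; filled points passed the adjusted threshold and open points did not. In C57BL/6, 28 points are called above 0 and 2 below, whereas in BALB/c Car2 alone is called.

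Markers of other cell types in the dissected tissue also differed between the groups, and their part in the members' results was not tested. The counts of called markers stand beside 11.3% of all tested genes called higher and 12.6% lower in C57BL/6, and single calls in lists this short are no result about a list. The 9 monocyte and macrophage markers in the table summed to 392.1 to 461 CPM in C57BL/6 wild type and 578 to 654 CPM in mutants, but 2 of 9 were called higher, Csf1r and Cd68, and 1 lower, Lyz2. Cd68, a lysosomal protein that osteoclasts also carry, went from 74.2 to 141.3 CPM on average (0.93 log2, adjusted p = 0.000243), and the list's median was 0.11. In BALB/c that sum was 482 to 532 CPM in wild type and 504 to 516 CPM in mutants, with 0 of 9 called. The 10 osteoblast markers summed to 62284 to 109816 CPM in C57BL/6 wild type and 117570 to 142504 CPM in mutants, with 8 of 10 called higher and a median of 0.60. Most of that sum was 1 collagen gene, Col1a1, at a mean of 89219 of 93528 CPM in C57BL/6 wild type, and Col1a1 itself was not called (adjusted p = 0.0594). In BALB/c the 10 markers summed to 99642 to 112980 CPM in wild type and 101345 to 109576 CPM in mutants, with 0 of 10 called.

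Most markers of other blood cells were called lower in C57BL/6 mutants, with the neutrophil sums of the groups overlapping. Neutrophil markers, relevant to Mmp9, summed to 229 to 404 CPM in wild type and 118 to 256 CPM in mutants, with 6 of 10 called lower, and to 571 to 675 CPM and 804 to 881 CPM in BALB/c, with 0 called. Megakaryocyte and platelet markers, relevant to Itgb3, summed to 23.2 to 33.4 CPM and 10.9 to 15.8 CPM in C57BL/6, with 5 of 6 tested called lower, and to 28.04 to 36.1 CPM and 39.1 to 56.96 CPM in BALB/c, with 0 called. Of 5 erythroid markers, 4 fell in mutants on C57BL/6 and 1 was called higher in those of BALB/c.

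Among the tissues next to bone, 3 of 6 chondrocyte markers were called lower in C57BL/6 mutants (sums of 4602 to 6758 CPM in wild type and 262 to 2602 CPM in mutants). In BALB/c those sums were 577 to 1688 CPM and 993 to 4817 CPM. Ciliated cell markers summed to 12.9 to 26.5 CPM and 3.49 to 8.40 CPM in C57BL/6, with 3 of 4 called lower, and to 4.45 to 5.03 CPM and 4.39 to 5.88 CPM in BALB/c. Endothelial markers summed to 395 to 466 CPM and 487 to 574 CPM in C57BL/6, with 2 of 6 called higher, and to 453 to 529 CPM and 459.9 to 503 CPM in BALB/c. Satellite cell markers summed to 26.8 to 39.0 CPM and 42.2 to 45.9 CPM in C57BL/6, where 1 of 3 tested was called higher (Cdh15) and 1 lower (Pax7), and to 28.9 to 41.4 CPM and 43.3 to 50.1 CPM in BALB/c. Skeletal muscle markers ranged from 6.92 to 65.7 CPM in C57BL/6 wild type, 7.23 to 8.89 CPM in C57BL/6 mutants, 15.3 to 20.9 CPM in BALB/c wild type and 14.8 to 378 CPM in BALB/c mutants, with 0 of 6 called in either strain. The members' own sum was 3707 to 4505 CPM, 7697 to 8577 CPM, 4403 to 5247 CPM and 4600.2 to 5264 CPM in those 4 groups.

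**Figure D5:**
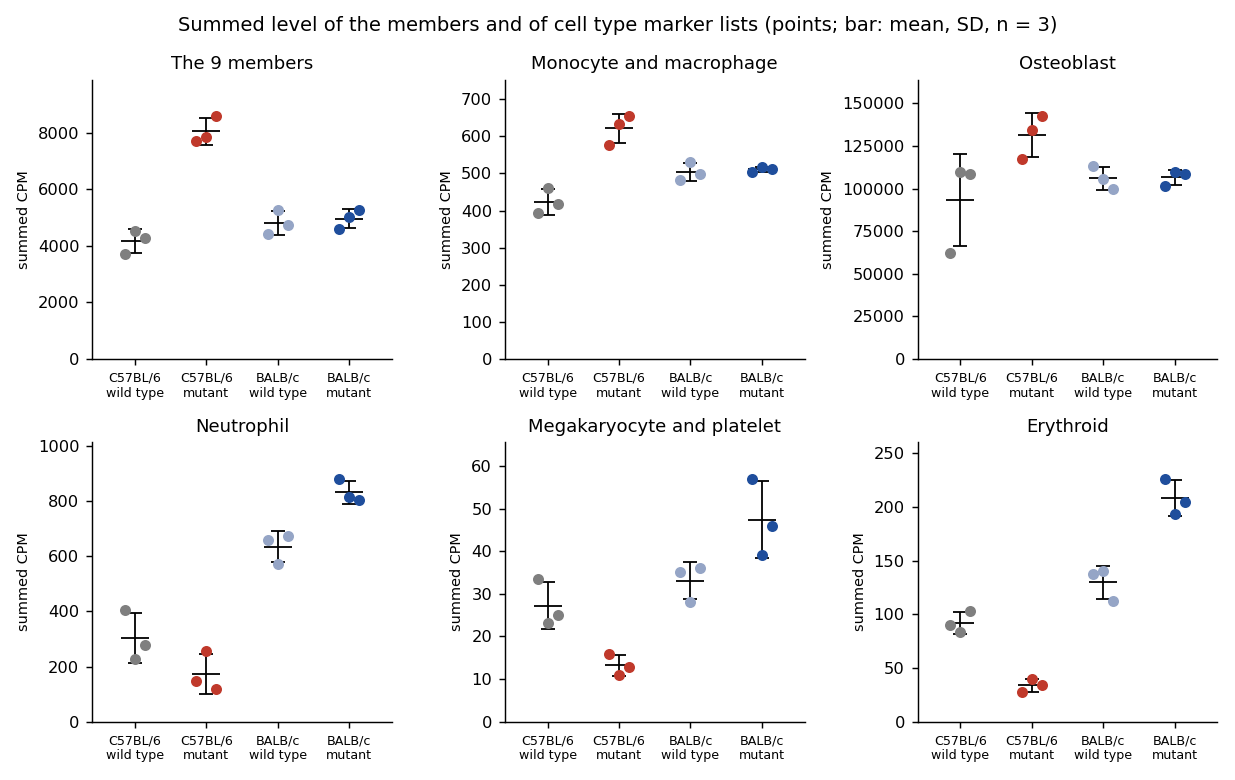
Summed CPM (linear axes from 0) of the 9 genes and of 5 marker lists in every sample of the 4 groups, with the mean and SD (n = 3). The members' sums in C57BL/6 mutants (7697 to 8577 CPM) lie above all other samples. So do that group's monocyte and macrophage sums (578 to 654 CPM) and osteoblast sums (117570 to 142504 CPM, mostly Col1a1). The erythroid and megakaryocyte sums are lowest in C57BL/6 mutants.

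In the authors' deposited table of comparisons, all 9 genes had a q-value under 0.05 and were higher in C57BL/6 mutants than in C57BL/6 wild type, where 11.5% of the genes with a q-value in that deposited table were called higher. Between the BALB/c groups 0 of 9 passed in the authors' deposited table, beside 1.43% of genes in either direction. The authors' deposited table listed 6 of 9 as higher in C57BL/6 mutants than in BALB/c mutants, beside 18.4% of genes. It listed 1 of 9, Ctsk, as lower in C57BL/6 wild type than in BALB/c wild type, beside 20.6% of genes in the authors' deposited table.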

How the data were processed

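The deposited table held raw counts per gene and RPKM for 12 samples, and the authors' comparisons with p-values, q-values and log2 fold values. The submitters' processing notes name mm10, bcl2fastq, TopHat2 2.0.6, HTSeq and DESeq2, without order or settings. Strand use in counting is not given in the sources used here.

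Counts were filtered with filterByExpr (minimum count 10, total 15), scaled by TMM and fitted in edgeR 4.0.16 (R 4.3.3) with 1 term per group, 8 residual degrees of freedom and quasi-likelihood tests of 6 contrasts. Benjamini-Hochberg adjusted p under 0.05 over all 16190 genes made a call. Alternatives were DESeq2 1.42.0, limma-voom 3.58.1, RLE and total-count scaling, no filter, a stricter filter, fits on the compared groups alone, a Y-linked covariate and leaving out each sample. Every deposited count was even, and a fit on halved counts was also run. The table repeats 26 identifiers on more than 1 row, none of them a member. Named pathway genes were up to 3 per list with the smallest C57BL/6 adjusted p. Members, lists and rules were chosen with earlier results of these data known. The result of 1 pathway list is not reported here.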

Additional observations from a re-analysis of the deposited data

Results flagged for a closer look

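For 7 of the 9 genes the genotype effect differed between C57BL/6 and BALB/c in the direct test of that difference (edgeR interaction, adjusted over all tested genes). The values, as BALB/c effect minus C57BL/6 effect on the log2 scale, were -1.14 for Dcstamp, -1.03 for Ocstamp, -0.96 for Ctsk, -0.94 for Acp5, -0.87 for Mmp9, -0.79 for Oscar and -0.63 for Itgb3. Of all tested genes, 10% were called in the interaction, 4.58% with a lower effect in BALB/c. The Itgb3 call held in 3 of 12 fits that left out 1 sample. It was lost with the Y-linked covariate (edgeR adjusted p = 0.0714) and with total-count scaling (0.0951). For these flags, groups of 3 samples were not screened for single outlying samples, and fits that left out 1 sample are given separately.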

How the results depend on the processing

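Over the alternatives, calls among the 9 genes numbered 8 to 9 for genotype in C57BL/6, 0 for genotype in BALB/c, 8 for strain in mutants, 6 to 8 for the interaction and 8 to 9 for the average. With 1 sample left out they were 8 to 9, 0, 8, 6 to 8 and 7 to 9. For strain in wild type they were 3 to 5, the 5 with total-count scaling, which added Ocstamp and Nfatc1, and 3 to 4 with 1 sample left out. The share of all tested genes called also moved: over the alternatives from 9.21% (only the 6 samples of the strain) to 29.1% (limma-voom) for genotype in C57BL/6, 0.0247% (total counts) to 2% (DESeq2) for genotype in BALB/c, 6.59% (no filter) to 16.6% (DESeq2) for the interaction, 5.16% (Y-linked covariate) to 13.5% (DESeq2) for the average, 38.3% to 50.2% for strain in wild type and 27.8% to 42.3% for strain in mutants. With 1 sample left out the first 4 shares were 10.5% (without C57BL/6 mutant 6) to 29.3% (without C57BL/6 mutant 4), 0% (4 fits) to 0.574% (without BALB/c wild type 14), 3.78% (without C57BL/6 mutant 6) to 19% (without C57BL/6 mutant 4) and 2.99% (without BALB/c mutant 18) to 15.9% (without C57BL/6 mutant 4). Leaving out C57BL/6 mutant replicate 4 and BALB/c mutant replicate 16 together, chosen after seeing the data, gave 9, 0, 3, 8, 7 and 9 for the 6 comparisons. Total-count scaling moved the median of all genes by -0.196 (log2) for genotype in C57BL/6 and 0.231 for the interaction. Signs turned only for differences that had not passed. With 1 sample left out, the BALB/c genotype difference ranged from -0.00565 to 0.0928 for Dcstamp, -0.0360 to 0.100 for Acp5, -0.0404 to 0.0915 for Ctsk and -0.0217 to 0.105 for Nfatc1. The wild-type strain difference ranged from -0.220 to 0.467 for Calcr and -0.0862 to 0.173 for Itgb3, the mutant strain difference from -0.241 to 0.108 for Calcr, and the Calcr interaction from -0.546 to 0.141. The wild-type strain difference was -0.0593 for Calcr with the Y-linked covariate and -0.0327 for Itgb3 with total counts, and the mutant strain difference 0.0366 for Calcr with total counts; the cause was not tested. No paired analysis was possible because no replicate number occurs in more than 1 group. The 3 samples per group limit precision most for Calcr, whose counts were lowest.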
